A study of Homo sapiens with 16 samples.

Results

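The ion-pumping ATPases examined here are 38 genes, chosen by their symbols from 8704 genes listed in either of 2 deposited tables. They fall into 17 genes of the vacuolar ATPase, 2 of them accessory, and 21 genes of the P-type pumps, which include the 2 beta subunits of the sodium/potassium pump. The symbol rule matches 63 protein-coding genes in GENCODE v44, an annotation of genes on GRCh38, and 25 of these are in neither table. All 38 genes were in the table of control-lentivirus cells, which lists 8657 genes. The table of complemented cells lists 7433 genes and held 34 of the 38, the 17 vacuolar genes and 17 P-type genes. ATP7B, ATP8B2, ATP9B and ATP10D were listed in the control-lentivirus table alone. The tables have different floors: no footprint base mean (a mean of normalized read counts) under 20 is listed for complemented cells and none under 10 for control-lentivirus cells. These 4 genes had 12.4 to 19.5 in control-lentivirus cells, under the floor of the other table, so their absence there is not a measured difference between the cells.

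The study profiled HCT 116 cells, an established human colorectal carcinoma line, by ribosome profiling and by stranded RNA-seq, in 4 conditions with 2 replicates of each assay (16 libraries). Every condition used 1 clonal line in which endogenous DDX3X carries a mini-AID degron and OsTIR1, the plant F-box protein that recognises the degron, is expressed from a CMV promoter. Indole-3-acetic acid (IAA), an auxin, makes the degron-tagged helicase DDX3X unstable. The complemented cells carried lentiviral FLAG-tagged DDX3Y or DDX3X with 500 µM IAA for 48 h, and the control-lentivirus cells had IAA at the same dose or DMSO for 48 h. One table covers the DDX3Y and DDX3X cells and the other the IAA and DMSO cells with control lentivirus, with no library in both. Each value used is a base mean, the authors' mean of normalized read counts over the libraries of 1 assay in 1 table. The values therefore pool both conditions of a table, no value per library was used, and differences between IAA and DMSO or between DDX3Y and DDX3X are not part of this account. Of 14 colorectal epithelium markers, 8 were listed in both tables. None of 5 blood, 4 endothelial or 4 muscle markers was listed, and of 6 fibroblast and 3 neuronal markers only COL1A1 (control-lentivirus table) and SYT1 (both tables) were. DDX3X mRNA had an RNA base mean of 10518 in complemented cells and 6774 in control-lentivirus cells. The degron acts on the protein and the values pool conditions, so this checks no label.

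The vacuolar ATPase is a rotary proton pump. Its peripheral V1 sector hydrolyses ATP, and its membrane V0 sector carries protons into lysosomes, endosomes and Golgi compartments, which it acidifies. P-type pumps work differently: a single large catalytic chain takes a phosphate from ATP onto a conserved aspartate during each transport cycle. The family holds the sodium/potassium pump of the plasma membrane, the calcium pumps of the endoplasmic reticulum (SERCA), Golgi (SPCA) and plasma membrane (PMCA), copper pumps, lipid flippases and the ATP13A transporters. In epithelial cells the sodium/potassium pump sets the sodium gradient that drives much of solute uptake. ATP2A2, which encodes SERCA2, was among the proteins for which the study used an antibody.

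The phosphorylated aspartate lies in the motif DKTG (aspartate, lysine, threonine, glycine), which the symbol rule did not use. It occurred exactly once in the translated coding sequence of each of the 19 P-type catalytic chains. It was in none of the 17 vacuolar genes and neither beta subunit, and in 0.617% of the 8588 genes of either table that had a coding sequence in GENCODE v44. In 16 of these genes the sequence around the motif was read: its first residue lay between positions 350 and 1044, and 13 different 12-base spellings encoded it. Windows of 30 bases are shown for 5 of them, from GENCODE v44 transcripts, to set the catalytic site beside the genes whose values follow. Capitals mark the 12 bases that encode DKTG.
ATP2C1: atttgttcaGATAAAACTGGAacactgacg
ATP2B1: atttgttcaGATAAAACAGGAactttgaca
ATP7A: gtggtatttGATAAGACTGGAaccattact
ATP11B: gtgtttacaGATAAAACTGGTacactgaca
ATP13A3: gtttgctttGACAAGACTGGAactctaact
In GRCh38 the capitals lie at chr3:130964971-130964982 (plus strand, exon 14) in ATP2C1 and at chr12:89621702-89621713 (minus strand, exon 10) in ATP2B1. In ATP7A they are at chrX:78031418-78031429 (plus strand, exon 16) and in ATP11B at chr3:182865474-182865485 (plus strand, exon 13). In ATP13A3 they are split between exons 14 and 15, within chr3:194444781-194446932 (minus strand).

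In the vacuolar ATPase the nucleotide is bound instead by a Walker A motif (glycine, any 4 residues, glycine, lysine, then serine or threonine) in the catalytic subunit A. Among the vacuolar genes the motif was found in ATP6V1A alone, from residue 250, and in 5.58% of all genes with a coding sequence. Here capitals mark its 24 bases, at chr3:113788744-113788767 (plus strand, exon 7).
ATP6V1A: cctGGAGCCTTTGGCTGTGGAAAGACAgtg
The same letters occurred in 1 P-type gene, ATP10D, from residue 996.

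Start codon windows are also given, with the start codon in capitals, for the genes with the 2 highest (ATP6V1G1 and ATP6V0C) and the 2 lowest (ATP11B and ATP13A3) ratios of footprints to RNA among the pump genes in complemented cells.
ATP6V1G1: agaatcgctgccgccATGgctagtcagtct
ATP6V0C: tccccacccgcagacATGtccgagtccaag
ATP11B: ggcgacgacgggggaATGtggcgctggatc
ATP13A3: taatccactgtaggtATGgacagggaagaa
The start codons lie at chr9:114587839-114587841 in ATP6V1G1, chr16:2514104-2514106 in ATP6V0C and chr3:182793760-182793762 in ATP11B (plus strand), and at chr3:194462188-194462190 in ATP13A3 (minus strand). A purine 3 bases before the start codon was present in 14 of 14 vacuolar genes and in 17 of 18 P-type genes with such a window, the exception being ATP8B3. A g directly after it was present in 8 of 14 vacuolar and 10 of 18 P-type genes, so the start contexts of the classes looked alike by these letters.

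RNA and footprint levels per kilobase (kb) of coding sequence set the scale of the members. In complemented cells the median RNA base mean per kb was 1226 for vacuolar genes, 761 for P-type genes and 727 for all genes of the table. The corresponding footprint base means per kb were 108, 24.7 and 38.5. In control-lentivirus cells the RNA medians were 1014, 585 and 600.5 per kb, and the footprint medians were 85.2, 14.1 and 24.4 per kb. The vacuolar genes thus stood above the median gene in both assays. P-type genes lay near it for RNA and below it for footprints: 4 of 17 P-type genes in complemented cells and 4 of 21 in control-lentivirus cells exceeded the median footprint level per kb, against 14 and 16 of 17 vacuolar genes.

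**Figure D1:**
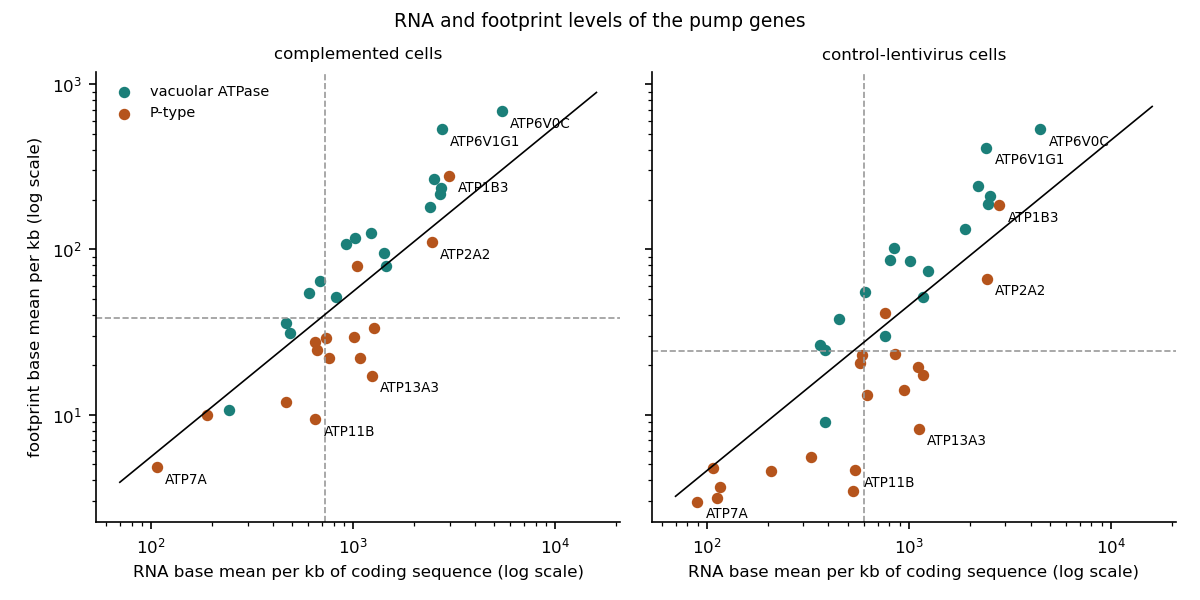
Footprint base mean per kb against RNA base mean per kb of coding sequence, both on log axes, for vacuolar (teal) and P-type (orange) genes in complemented cells (left) and control-lentivirus cells (right). Dashed lines are the medians of all genes of the table and the solid line is the median ratio of footprints to RNA, and most P-type genes lie under that line while most vacuolar genes lie over it.

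Footprints per RNA is used below for the log2 ratio of the footprint base mean to the RNA base mean of a gene, minus the median of that ratio over all genes of the same table. A value of 0 is the median gene, for which the ratio of footprints to RNA was 0.0556 in complemented cells and 0.0457 in control-lentivirus cells. Coding length cancels in the ratio. The bracketed intervals are 95% Wilson intervals for an assumed pool of 4 libraries per assay, they cover counting error only, and no spread between replicates stands behind any value.

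The V1 sector was represented by 8 subunits. ATP6V1G1 (ENSG00000136888.7, chr9:114587706-114598915), subunit G of the peripheral stalks, had the highest footprints per RNA of all pump genes. Its RNA base mean was 971 and its footprint base mean 188 in complemented cells, against 856 and 146 in control-lentivirus cells. Footprints per RNA was 1.80 (1.69 to 1.91) in complemented cells and 1.90 (1.77 to 2.03) in control-lentivirus cells, the 99.2 and 98.9 percentiles of all genes. ATP6V1A (chr3:113746770-113812056), the catalytic subunit, had RNA base means of 1268 and 1125 and footprint base means of 119 and 101 in complemented and control-lentivirus cells. Its footprints per RNA was 0.76 (0.63 to 0.90) and 0.98 (0.83 to 1.13) in the same order. ATP6V1E1 (chr22:17592136-17628749), stalk subunit E, had 0.43 and 0.60, with footprint base means of 122 and 89.6. The catalytic subunit and the stalk subunits thus all stood above the median gene in both tables.

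The other V1 subunits had footprint base means between 38.4 and 90.3 in complemented cells and between 22.1 and 75.2 in control-lentivirus cells. ATP6V1B2 (subunit B, 0.69 and 0.89 in complemented and control-lentivirus cells), ATP6V1F (0.52 and 0.87) and ATP6V1H (0.48 and 0.47) also lay above the median gene. The lowest V1 values were those of ATP6V1C1, subunit C, with -0.05 in complemented and -0.07 in control-lentivirus cells, and of ATP6V1D, a subunit of the central rotor, with 0.18 and -0.23. The counting intervals of ATP6V1C1 and ATP6V1D included 0 in both tables, so neither could be told from the median gene. In the V1 sector, 41.5% of the 28-base windows of ATP6V1E1 and 42.7% of those of ATP6V1F also occur in transcripts of other annotated genes. Both counts may therefore be uncertain. Windows were matched on either strand, and matches on the opposite strand were not told apart. Of 141 such windows in ATP6V1F, 84 were shared with KCP.

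In the V0 sector, ATP6V0C (ENSG00000185883.12, chr16:2513952-2520218), the proteolipid that forms most of the proton-carrying ring, had the highest levels. Its RNA base mean was 2525 and its footprint base mean 319 in complemented cells, against 2076 and 248 in control-lentivirus cells. Footprints per RNA was 1.18 (1.10 to 1.27) in complemented and 1.38 (1.29 to 1.48) in control-lentivirus cells. This count may be uncertain too, since 94.3% of the 28-base windows of ATP6V0C also occur in other annotated genes, most of them in ENSG00000260272. ATP6V0B, the second proteolipid, had footprint base means of 164 and 115 and footprints per RNA of 0.94 and 0.73 in complemented and control-lentivirus cells. ATP6V0D1 (chr16:67438014-67481181), subunit d, which links ring and rotor, had footprint base means of 114 and 90.8 and footprints per RNA of 1.08 and 1.22. The proteolipids and subunit d thus lay well over the median gene in both tables.

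The remaining V0 genes had lower counts. ATP6V0E1 and ATP6V0E2, the small e subunits, had footprint base means of 56.8 and 23.2 in complemented cells and 58.4 and 17.9 in control-lentivirus cells. Footprints per RNA was 0.63 and 1.25 for ATP6V0E1 and 0.28 and 0.37 for ATP6V0E2 in complemented and control-lentivirus cells. The a subunits carry the proton half-channels and direct the pump to its compartment. ATP6V0A1 had footprints per RNA of 0.21 in complemented and 0.65 in control-lentivirus cells. ATP6V0A2 had -0.34 (-0.62 to -0.07) and -0.97 (-1.27 to -0.67), the lowest of the vacuolar genes in both tables, from footprint base means of 27.3 and 23.0. The accessory genes lay high: ATP6AP1, a chaperone-like subunit, had footprint base means of 166 and 144 with footprints per RNA of 1.05 and 1.41, and ATP6AP2, the prorenin receptor, had 133 and 89.5 with 0.89 and 0.88.

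**Figure D2:**
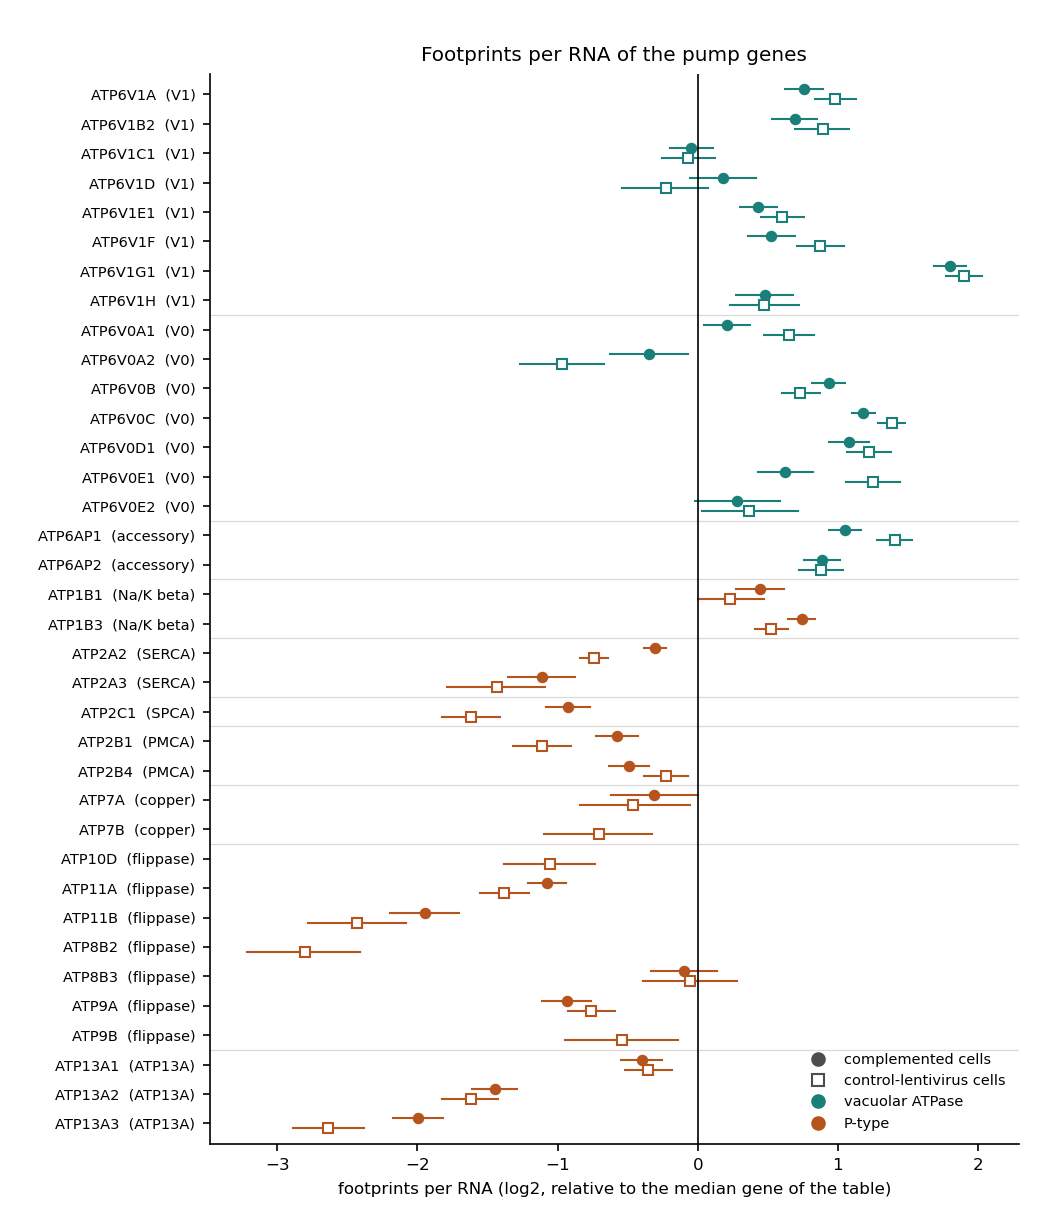
Footprints per RNA (log2, relative to the median gene of the table, x axis) of the pump genes (rows, with the class), in complemented cells (filled circles) and control-lentivirus cells (open squares). Bars are 95% counting intervals, vacuolar genes are teal and P-type genes orange, and ATP6V1G1 lies farthest right while ATP8B2 and ATP13A3 lie farthest left.

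The copies of each subunit in the vacuolar ATPase are known from structures of the mammalian complex: 3 each of A, B, E and G, 1 each of C, D, F, H, a, d and e, and a ring of 9 c and 1 c″. Footprint base means per kb, summed over the listed paralogs (TCIRG1 joined to the a subunits), were set beside these copies. The c subunit had the largest sum, 685 per kb in complemented cells and 533 in control-lentivirus cells, and G the next, with 532 and 413. The catalytic hexamer partners A and B were close to each other, with 64.5 and 54.2 in complemented cells and 54.8 and 38.1 in control-lentivirus cells. E and G, which pair in the stalks, were not: E had 179 and 132. Per copy the values in complemented cells ran from 18.1 for B to 329 for e. In control-lentivirus cells they ran from 12.7 for B to 314 for e. The summed footprints therefore did not follow the copies over the complex as a whole. The subunits with the 4 highest values per copy, e, c″, F and G, are also those with coding sequences of 615 nt or less, apart from c (465 nt, 76.1 and 59.2 per copy).

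**Figure D3:**
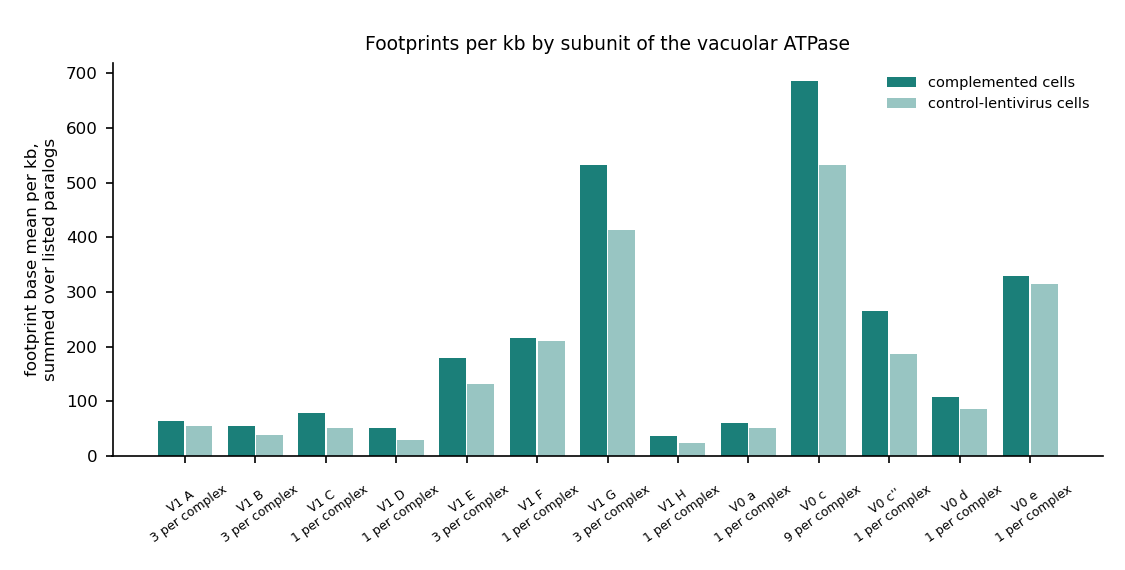
Footprint base mean per kb of coding sequence, summed over the listed paralogs of each subunit of the vacuolar ATPase (bars from 0), in complemented cells (dark) and control-lentivirus cells (light). The number under each subunit is its copies per complex, and c and G have the tallest bars in both tables.

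ATP1B3, a beta subunit of the sodium/potassium pump, had footprint base means of 233 in complemented and 154 in control-lentivirus cells and footprints per RNA of 0.74 (0.65 to 0.84) and 0.53 (0.41 to 0.64). The other beta subunit, ATP1B1, had footprint base means of 71.9 and 37.4, with 0.45 and 0.23. These were the only P-type genes above the median gene in either table. Windows shared with other genes made up 27.8% of ATP1B3, 11.9% of ATP6AP2 and 11.6% of ATP13A2.

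Among the calcium pumps, ATP2A2 (ENSG00000174437.17, chr12:110280756-110351093), which refills the calcium store of the endoplasmic reticulum, was the most abundant. Its RNA base mean was 7656 in complemented and 7594 in control-lentivirus cells, and its footprint base mean was 345 and 208. Footprints per RNA was -0.30 (-0.38 to -0.23) in complemented and -0.74 (-0.84 to -0.64) in control-lentivirus cells. Its paralog ATP2A3 had footprint base means of 35.8 and 16.6 and lay lower, with -1.11 and -1.43. The plasma membrane pump ATP2B4 (chr1:203626832-203744081) had footprint base means of 105 and 82.9 with -0.49 and -0.22, and ATP2B1 had 90.3 and 48.2 with -0.58 and -1.11. ATP2C1, the Golgi calcium and manganese pump, had 81.7 and 48.1 with -0.93 and -1.62. The counting intervals of all 5 calcium pump genes lay below 0 in both tables.

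The copper pumps had the lowest footprint levels per kb of the pump genes: ATP7A had footprint base means of 21.5 and 13.4 in complemented and control-lentivirus cells, and ATP7B had 13.8 in control-lentivirus cells. Their footprints per RNA was -0.31 and -0.46 for ATP7A and -0.71 for ATP7B. Flippases, which move phospholipids to the cytosolic leaflet, spanned a wide range. The highest was ATP8B3, with -0.10 in complemented and -0.05 in control-lentivirus cells. The lowest was ATP11B in complemented cells, with -1.95 (-2.20 to -1.70), and ATP8B2 in control-lentivirus cells, with -2.80 (-3.22 to -2.41) from a footprint base mean of 12.4. ATP11A (chr13:112690038-112887168), with footprint base means of 114 and 66.2, had -1.08 and -1.38. ATP9A, ATP9B and ATP10D lay between -1.06 and -0.54 in the tables that list them.

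Of the ATP13A transporters, ATP13A1, which removes misinserted proteins from the endoplasmic reticulum, had -0.40 in complemented and -0.35 in control-lentivirus cells. ATP13A2, a lysosomal polyamine exporter, had -1.45 and -1.62. ATP13A3 (chr3:194402672-194498364) had -2.00 (-2.17 to -1.82) and -2.64 (-2.89 to -2.38), from an RNA base mean of 4651 and a footprint base mean of 64.8 in complemented cells and 4208 and 30.9 in control-lentivirus cells. Its RNA base mean per kb, 1234 in complemented and 1117 in control-lentivirus cells, was above the median of all genes, while its footprints per RNA was at the 2.40 and 1.60 percentiles.

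As classes, the vacuolar genes had a median footprints per RNA of 0.63 (range -0.34 to 1.80) in complemented cells, against -0.49 (-2.00 to 0.74) for the P-type genes. In control-lentivirus cells the medians were 0.87 (-0.97 to 1.90) and -0.74 (-2.80 to 0.53). Vacuolar genes lay above the median gene in 15 of 17 and 14 of 17 cases, and P-type genes in 2 of 17 and 2 of 21. The difference of the medians was 1.11 in complemented and 1.61 in control-lentivirus cells, or 2.16 and 3.06 times. No P-type catalytic chain lay above the median gene in either table. The ranges overlapped: 7 of 17 vacuolar genes in complemented cells and 12 of 17 in control-lentivirus cells exceeded every P-type gene. Genes are not replicates, and no test was made.

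Coding length moved with this difference. The median coding length was 1050 nt for the vacuolar genes and 3402 nt for the P-type genes of the complemented table (3531 nt in the control-lentivirus table), against 1431 nt for all genes of the complemented table. All genes were put into 10 bins of equal size by coding length. The median footprints per RNA ran from 0.86 in the bin of shortest genes to -0.96 in that of the longest in complemented cells, and from 0.97 to -1.03 in control-lentivirus cells. Set against the median of the same length bin, the vacuolar medians were 0.39 and 0.41 and the P-type medians 0.051 and -0.15 in complemented and control-lentivirus cells. The difference of the medians was then 0.34 and 0.56. In complemented cells 10 of 17 vacuolar and 9 of 17 P-type genes lay above the median of their length bin, and in control-lentivirus cells 11 of 17 and 8 of 21 did. ATP6V1G1 (0.94 and 0.93), ATP6AP1 (0.93 and 1.30) and ATP6V1A (0.91 and 1.17) stood highest above their bin in complemented cells. ATP11B (-1.41) and ATP13A3 (-1.04) lay farthest below theirs in complemented cells. In control-lentivirus cells ATP8B2 (-2.21) lay farthest below, followed by ATP11B (-1.83) and ATP13A3 (-1.61). Genes of both classes lay on either side of the median of their bin. The P-type gene ATP8B3 lay above its bin (0.87 in complemented, 0.98 in control-lentivirus cells). The vacuolar genes ATP6V0E2 (-0.58 and -0.61) and ATP6V1D (-0.37 and -0.86) lay below theirs. The part of length in the class difference was not tested.

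**Figure D4:**
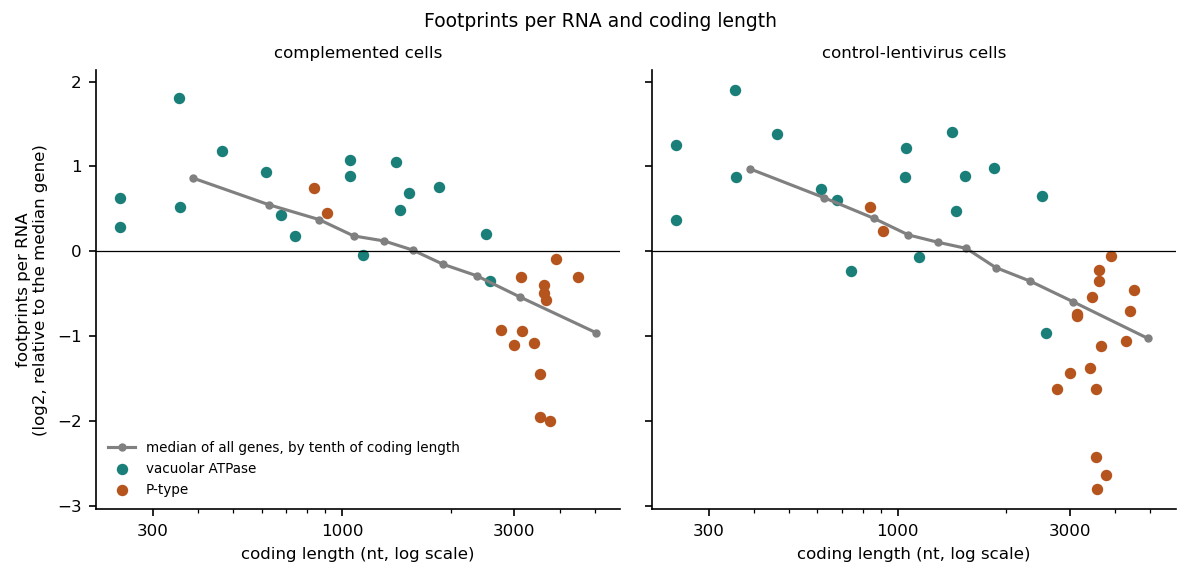
Footprints per RNA (log2, relative to the median gene, y axis) against coding length (nt, log axis) of vacuolar (teal) and P-type (orange) genes, in complemented (left) and control-lentivirus cells (right). The grey line joins the medians of all genes in 10 bins of coding length, and it falls from left to right through the region that separates the classes.

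For the 7386 genes listed in both tables, values in complemented cells were compared with those in control-lentivirus cells. They were normalized separately, so differences are given relative to the median shared gene, which removed 0.22 from footprints per RNA, 0.37 from footprints and 0.12 from RNA on the log2 scale. Lentiviral DDX3, the pooling of DMSO with IAA in the control-lentivirus table, and any difference in when libraries were made cannot be told apart here. Among all shared genes the difference in footprints per RNA had an SD of 0.33. Shifts above 0.5 were seen in 10.3% and below -0.5 in 1.75% of the shared genes. Shared genes had to pass both floors. A gene with 10 to 20 footprints in control-lentivirus cells thus entered only if it reached 20 in complemented cells. This held for ATP11B (footprint base means of 16.3 in control-lentivirus and 33.1 in complemented cells), ATP2A3, ATP7A, ATP8B3 and the vacuolar ATP6V0E2. ATP7B, ATP8B2, ATP9B and ATP10D, all P-type, did not enter. The part of the floors in the class values was not tested.

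The shared P-type genes had a median difference of 0.28 in footprints per RNA, with 14 of 17 genes above the median shared gene. Vacuolar genes had a median of -0.08, with 6 of 17 above. The 14 include ATP11B, ATP2A3, ATP7A and ATP8B3, which entered only because they passed the higher floor in complemented cells. The vacuolar gene that entered in this way, ATP6V0E2, had -0.02. The P-type median and count therefore cannot be read apart from this entry rule. The medians of both classes moved with the centring. With no centring they were 0.50 for P-type and 0.14 for vacuolar genes, and centred on shared genes with footprint base means above 100 they were 0.41 and 0.044, so the sign of the vacuolar median turned. Among members with footprint base means above 100 in both tables, centred as at first, the medians were 0.50 for P-type and -0.14 for vacuolar genes. In 6 of 17 P-type genes (among them ATP2C1, ATP13A3, ATP2B1, ATP11B and ATP2A2) and 1 of 17 vacuolar genes (ATP6V0A2) the difference exceeded 0.5, and in 1 vacuolar gene (ATP6V0E1) it was below -0.5. Of these, ATP11B entered only through the floor in complemented cells. Genes named in this comparison outside the class extremes were singled out after their values were seen. The values just outside the limit were 0.48 for ATP6V1D and 0.39 for ATP2A3, and the value just inside was 0.50 for ATP2A2.

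The P-type differences were mostly in footprints rather than RNA. The median P-type difference was 0.40 in footprints and 0.06 in RNA, against 0.00 and 0.14 for vacuolar genes. The P-type footprint median includes the genes that entered only through the floor in complemented cells. ATP2A2 had 0.50 ± 0.06 (counting error, 1 SE), with 1.66 times the footprint base mean and 1.01 times the RNA base mean of control-lentivirus cells before centring. ATP2C1 (0.76 ± 0.13) and ATP13A3 (0.71 ± 0.16) had the largest differences of the pump genes, with footprints at 0.40 and 0.70 and RNA at -0.33 and 0.02. ATP8B3 was unlike these: its RNA and footprints were both higher, by 0.70 and 0.69, and its footprints per RNA differed by 0.02. ATP2B4 and ATP9A lay below the median shared gene, at -0.20 and -0.11.

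Among the vacuolar genes the largest differences went both ways. ATP6V0A2 had 0.69 ± 0.21 with an RNA difference of -0.78, and a footprint difference of -0.12. ATP6V0A1, its paralog, had the opposite pattern, with -0.38 ± 0.12 in footprints per RNA and 0.30 in RNA. ATP6V0E1 had -0.56 ± 0.14, ATP6AP1 -0.29 ± 0.09 and ATP6V1F -0.28 ± 0.12. The remaining 12 genes lay between -0.16 and 0.48, and for ATP6V1G1 (-0.03 ± 0.09) and ATP6V0D1 (-0.08 ± 0.11) the difference was smaller than its counting error.

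**Figure D5:**
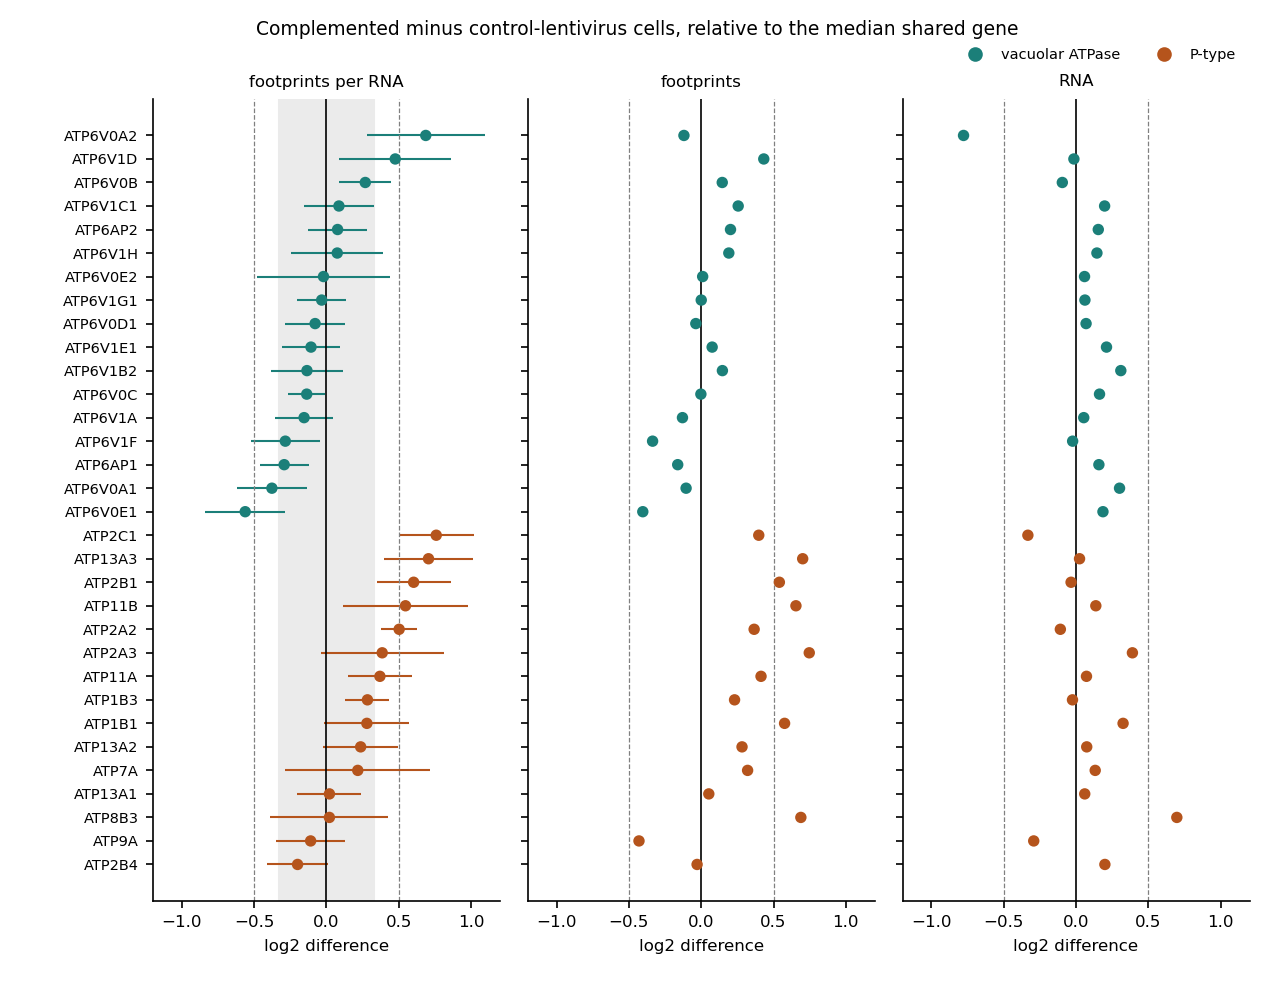
Complemented minus control-lentivirus cells (log2, relative to the median shared gene) in footprints per RNA, footprints and RNA, for vacuolar (teal) and P-type (orange) genes listed in both tables. Bars are 95% counting intervals, the grey band is ±1 SD of all shared genes and dashed lines mark ±0.5; most P-type genes lie to the right for footprints, while ATP6V0A2 lies far to the left for RNA.

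The GC content of the 5′ UTR moved with the same difference over all genes. The median difference in footprints per RNA was -0.12 in the lowest and 0.31 in the top one of 10 bins made by 5′ UTR GC. P-type 5′ UTRs had a median GC of 75.4% in the complemented table, against 64.3% for vacuolar and 68.8% for all genes. Relative to genes in the same bin of 5′ UTR GC, the P-type median was 0.14 and the vacuolar median -0.07. Both include the genes that entered only through the floor in complemented cells. Of the P-type genes 4 of 17 still exceeded 0.5, and 1 vacuolar gene did (ATP6V1D, 0.57). Among the 7186 shared genes with a 5′ UTR GC value, 566 did. ATP2B1, with a 5′ UTR GC of 53.0%, then had a difference of 0.73 and ATP2C1 (69.6%) one of 0.76, while ATP2A2 (79.2%) then had 0.32. The part of 5′ UTR composition in the P-type values was not tested.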

How the data were processed

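Ribosome profiling and RNA-seq libraries (4 conditions, 2 replicates, 16 libraries) were grouped from the sample labels. The authors trimmed adapters, collapsed UMIs, discarded rRNA, snoRNA, tRNA and miRNA reads, mapped to hg38 and counted coding-sequence reads with Ribo-seQC. According to the submitters' processing notes, STAR 2.6.0a, Bowtie2 and cutadapt were used. The deposited base means, held as a score of normalized counts, are the authors' DESeq2 means over all libraries of 1 assay in a table. The deposited columns of log2 fold changes, adjusted p-values and classes (IAA against DMSO, DDX3Y against DDX3X) are the authors' own comparisons and were not used. Base means summed to 734724 and 604809 for footprints and 15950128 and 15611333 for RNA in complemented and control-lentivirus cells, so footprints limit precision.

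Genes were matched by ID to GENCODE v44 (GRCh38, the files' build) for 7348 of 7433 and 8542 of 8657 genes, using the canonical transcript. Ratios, medians, percentiles, Wilson intervals and medians within 10 bins of coding length or 5′ UTR GC were computed with Python 3.11.15, pandas 2.3.3 and scipy 1.17.1. Only the class medians relative to bins of coding length were checked on simulated data. Windows of 28 bases found on either strand in transcripts of other genes marked counts that may be uncertain. No test was made, since no value per library was used. Every member is accounted for: those with a footprint base mean of at least 100 in either table were described singly, the others by range, with the lowest and highest of each class, and ATP2A2 always; 2 P-type genes and 1 sequence are counted but not reported here, and the figures leave those genes out. Members and lists were chosen with earlier results of these data known.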

Additional observations from a re-analysis of the deposited data

How the results depend on the processing

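The class difference kept its direction under every alternative run: base means above 20, footprint base means above 100, means in place of medians, and without accessory genes and beta subunits. In complemented cells the limit of 20 removed no pump gene, so that run could not change the values there. With footprint base means above 100 the control-lentivirus P-type median was -1.22 and the class difference 2.06, and with means the P-type value was -0.95. Relative to bins of coding length, which were added once the data had been seen, the vacuolar medians were 0.39 in complemented and 0.41 in control-lentivirus cells, the P-type medians 0.051 and -0.15, and the differences 0.34 and 0.56. The P-type median in complemented cells thus turned sign. Without division by coding length the log2 ratio of vacuolar over P-type median RNA was -1.32 and -1.18 in complemented and control-lentivirus cells, against 0.69 and 0.79 per kb, and that of footprints was 0.21 and 0.64. Between tables, the sign of the vacuolar median turned with the centring, as given beside it. With no centring 2 vacuolar and 8 P-type genes lay above 0.5. Centred on shared genes with footprint base means above 100, 2 and 7 did. Both settings raise every difference, so more genes of any kind pass the limit. No share over all shared genes stands beside these counts, so they are not a result about the pump genes. Bins of 5′ UTR GC, added in the same way, left 4 P-type genes and 1 vacuolar gene above 0.5, against 566 of 7186 shared genes. No paired analysis was possible because a base mean pools the replicates, and for the same reason no replicate could be left out.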

Other observations

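Of 37 related genes, 22 were listed in complemented and 24 in control-lentivirus cells, with median footprints per RNA of 0.10 and -0.10. ATOX1, the copper chaperone that feeds ATP7A and ATP7B, had 1.69 and 2.01, while its targets lay below 0. Both targets lay above the median of their bin of coding length, however. ATP7A had 0.65 in complemented and 0.57 in control-lentivirus cells, and ATP7B had 0.32 in control-lentivirus cells. The assembly factors of the vacuolar ATPase CCDC115 (1.30 and 1.64), TMEM199 (1.28 and 1.46) and VMA21 (0.70 and 0.98) lay above the median gene, and the large regulators DMXL1 (-1.43 and -1.27) and DMXL2 (-1.42 and -1.53) below it. TMEM30A, the CDC50 subunit that flippases need to leave the endoplasmic reticulum, had a footprint base mean per kb of 138 in complemented and 104 in control-lentivirus cells, against 52.6 and 36.9 summed over the listed flippases that use it. FXYD5, a regulator of the sodium/potassium pump, had 0.86 and 1.08. PLN and SLN, which inhibit SERCA pumps in muscle, were in neither table.

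Genes of store-operated calcium entry and release, which work opposite to the calcium pumps, were singled out after their values were seen. Complemented minus control-lentivirus cells, STIM1 differed by 1.11 in footprints per RNA, ORAI1 by 0.78, ITPR3 by 0.53, ITPR2 by 0.52 and STIM2 by 0.27. ORAI1 and STIM2 had footprint base means of 17.4 and 19.5 in control-lentivirus cells. They thus entered only because they reached 20 in complemented cells. Of all shared genes 10.3% exceeded 0.5, and ROGDI, another of the related genes, had 0.75, so these values single out no group of genes. The rotary ATPase most like the vacuolar one, the mitochondrial ATP synthase, had 19 listed genes with a median footprints per RNA of 0.54 and 0.77. All 19 had a lower footprint value relative to the median shared gene in complemented cells, with a median of -0.26. Their RNA was lower too in 16 of 19, with a median of -0.15. The difference in footprints per RNA had a median of -0.16, with 15 of 19 below 0.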
